A study of Mus musculus with 6 samples.

Results

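The proteasome is the protease that degrades proteins tagged with ubiquitin. The genes described here were the rows of the deposited table whose symbols begin with Psm, a letter from a to g and a number, that were not pseudogenes and whose normalized count averaged at least 10 over the 6 libraries. There were 50 such genes among the 18664 rows tested and the 55471 rows in all. The symbols matched 56 rows. Of these, 5 were pseudogenes, and Psmb11, a catalytic subunit of the thymus, was left out at a mean of 0.633, with 5 reads in all libraries together. The members closest to the limit were Psme2b and Psma8, with means of 14.4 and 15.0. A further 2 members, Psmc3ip and Psme3ip1, carry the name of a subunit because their proteins bind one, so that 48 members encode subunits, activators, an inhibitor or assembly chaperones.

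RNA was taken from YFP-positive cells of the subgranular zone (SGZ), the layer of the hippocampal dentate gyrus in which neural stem cells reside, in 3 NTG and 3 3xTg libraries. NTG mice were the non-transgenic controls and 3xTg mice, a model of Alzheimer's disease, carry several mutant alleles, among them human APP and MAPT (tau) transgenes. The strain of both was given as B6129SF2/J. All mice of both groups also carried Nestin-CreERT2 and ROSA26-EYFP and received tamoxifen, and cells were sorted 10 days after it, at an age given as postnatal day 35. Since the Nestin promoter drives the recombinase, the sort holds cells that expressed Nestin at the time of tamoxifen together with their later progeny. Dead cells were excluded with propidium iodide. The NTG colony was kept separately, so that genotype and colony cannot be told apart, and the 3 replicates of each genotype were biological ones, with the number of mice per library not given in the sources used here.

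The proteasome consists of a barrel, the 20S core, whose outer rings of alpha subunits form a gate and whose inner rings of beta subunits hold the active sites. The 19S particle sits on the barrel, binds ubiquitin chains, removes them and unfolds the protein with a ring of ATPases. Other activators can take its place, and under interferon the standard catalytic subunits are replaced in new particles by inducible ones, which form the immunoproteasome and change the peptides made for MHC class I.

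Assigned reads numbered 32731794 to 42576455 per NTG library and 53063475 to 81800375 per 3xTg library, so that every 3xTg library was deeper. Values below are the deposited counts, which DESeq2 scaled for depth, and every log2 fold change is 3xTg over NTG, with its standard error (SE). A gene was called when limma's adjusted p over all 18664 rows was under 0.05 and its log2 fold change was beyond 0.5 in size. In a principal component analysis, whose first axis held 48.5% of the variance, 3xTg replicate 1 lay between the NTG libraries and the other two 3xTg libraries. Markers of neural stem cells were high throughout, with a summed normalized count of 420454 to 551578 in NTG and 449308 to 490208 in 3xTg cells. Those of astrocytes summed to 865784 or more in every library. Those of the oligodendrocyte lineage summed to 314982 in NTG replicate 3 and to 599258 to 666740 in the other libraries. Endothelial markers summed to 8018 to 9936 in NTG and 3840 to 6383 in 3xTg cells and 3 of 10 were called lower. Those of pericytes and smooth muscle summed to 35886 to 45534 and 19782 to 33887, with 2 of 9 called lower. Mature neuron markers summed to 7212 to 8102 in NTG and 5814 to 6625 in 3xTg cells, with 1 of 10 called lower. In the oligodendrocyte lineage, microglia and fibroblast lists, 1 of 10, 1 of 10 and 1 of 8 were called lower. All 5 tested red cell markers had an unadjusted limma p under 0.05 in the lower direction, and 0 were called. Over all tested rows 1.67% were called lower. The part of these cell types in the results below was not tested, and in bulk samples fewer cells of a type and less RNA per cell cannot be told apart.

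Of the 50 members, 1 was called higher in 3xTg cells, Psme4, and none was called lower. Over all tested rows, 1.13% were called higher and 1.67% lower. For the count of 0 lower members, 3 members had an unadjusted limma p under 0.05, and edgeR and DESeq2 also called 0, while over all rows they called 1.62% and 3.91% lower. Each also called Psme4 alone in the higher direction, beside 1.22% and 3.2% of all rows. In the higher direction 12 of the 50 members had an unadjusted limma p under 0.05, beside 12.1% of all rows, and in the lower direction the background was 11.4%. With each library's GC trend removed, 6 members were under 0.05 in the higher direction and 3 in the lower. The shares of all rows above are from the fit without this removal, and those with it are not given here, so that these 2 counts have no background. In that setting 0 members were called in either direction, while over all rows 180 were called higher and 308 lower. All 3xTg libraries lay above all NTG libraries for 17 of the 50 members and below them for 5, beside 15.1% and 12.6% of all rows. The median log2 fold change of the members was 0.07 with 32 above 0 and 18 below, against a median of 0.01 over all tested rows, of which 50.8% were above 0. Most members differed little. In 46 of 50 the log2 fold change lay within 0.5 of 0, compared with 79.5% of all rows. Replicates were also close together, with a median coefficient of variation of 4.96% in NTG and 7.31% in 3xTg cells, where all tested rows had 13.4% and 13.8%. The mean normalized count of the members had a median of 3539, and neither comparison with all rows was matched for expression level. Whether the members differ in these respects from rows of similar level was therefore not tested.

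**Figure D1:**
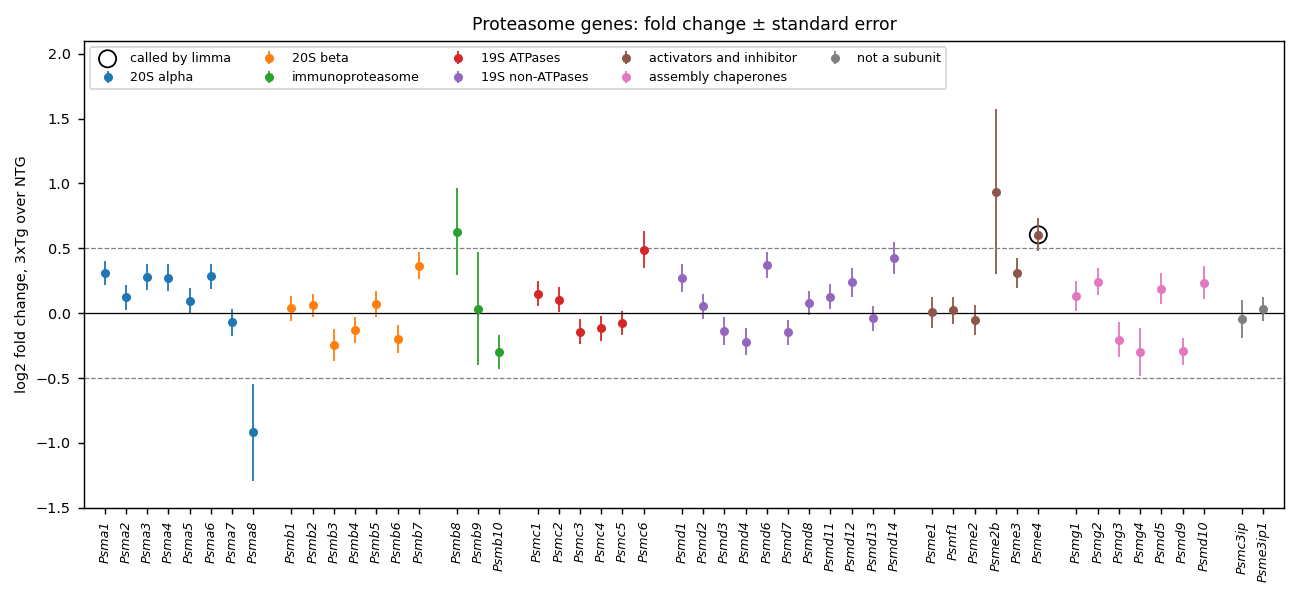
Log2 fold change of each of the 50 members, 3xTg over NTG, with its standard error from limma, coloured by group; dashed lines mark 0.5 and -0.5. Most points lie between the dashed lines, and only Psme4 (circled, 0.60) was called, while the points with the widest errors are Psme2b and the inducible subunit Psmb9.

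The activators and the inhibitor of the core were the group that held the called gene. Psme4 encodes PA200, a large nuclear activator that caps the 20S core without the use of ATP and has been linked to the degradation of acetylated histones. The gene lies at chr11:30771726-30880361 on the forward strand (GRCm38, GENCODE M21). Its window of 300 bases around the RefSeq start (GRCm38.p6, chr11:30771525-30771824, 250 bases before the start and 50 after) is shown because it is the only called member, with the one match to the core of the antioxidant response element, TGACNNNGC, in capitals.
Psme4: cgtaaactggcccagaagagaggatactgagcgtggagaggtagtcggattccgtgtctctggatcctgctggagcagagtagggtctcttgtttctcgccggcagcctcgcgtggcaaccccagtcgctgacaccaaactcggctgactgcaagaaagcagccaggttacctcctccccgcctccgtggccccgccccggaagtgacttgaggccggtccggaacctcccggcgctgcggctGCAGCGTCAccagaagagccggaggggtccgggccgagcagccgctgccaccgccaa
This element is bound by Nrf1 and Nrf2, transcription factors known to act on proteasome genes. Here the match reads on the reverse strand and begins 7 bases before the start. Among windows of this length, 12.4% of 32851 hold the same letters on either strand, so that the match is a description of the sequence and no more.

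Psme4 had normalized counts of 1024, 1133 and 901 in NTG and 1401, 1643 and 1596 in 3xTg cells. All 3 3xTg libraries lay above all 3 NTG libraries. The mean rose from 1019 ± 116 (SD, n = 3) to 1547 ± 129 (SD, n = 3), a log2 fold change of 0.60 (SE 0.13, limma adjusted p = 0.0393). It was also called by edgeR (adjusted p = 0.0374) and DESeq2 (adjusted p = 0.00165). The call rests on few libraries. When any 1 library was left out, the log2 fold change was 0.52 to 0.68. The limma adjusted p was over 0.05 without NTG replicate 1, 2 or 3 or 3xTg replicate 2 or 3 (0.122, 0.0545, 0.0696, 0.171 and 0.167). In those settings 49 to 160 of all rows were called higher, instead of 210 with all libraries. Without 3xTg replicate 1, 959 rows were called higher and the limma adjusted p of Psme4 was 0.0174. After removal of each library's GC trend the log2 fold change was 0.43 (limma adjusted p = 0.0473), under the fold threshold.

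The other activators did not pass. Psme1 and Psme2 form the interferon-inducible ring PA28 and Psme3 the related nuclear ring PA28-gamma. For Psme3, the NTG libraries had normalized counts of 3244, 3197 and 2662 and the 3xTg libraries 3407, 4108 and 3749.9. The groups did not overlap, and the log2 fold change was 0.31 (SE 0.12, limma adjusted p = 0.162). Psme1 stood at normalized counts of 1762, 1836 and 2251 in the NTG replicates and at 1914, 1867 and 2069.8 in the 3xTg replicates. Psme2 had normalized counts of 1513, 1617 and 1772 in NTG and 1682, 1429.8 and 1616 in 3xTg cells. In both of these genes the groups overlapped, and the log2 fold changes were 0.0077 and -0.05, each with an SE of 0.12. Psme3 and Psme4 therefore had higher values in every 3xTg library than in any NTG library, and Psme1 and Psme2 did not. Psmf1, which encodes the core inhibitor PI31, had a log2 fold change of 0.02 (SE 0.10). For Psme2b, the NTG libraries had normalized counts of 2.34, 9.82 and 22.2 and the 3xTg libraries 21.7, 14.6 and 15.6. This copy of Psme2 shares 99.4% identity with it over 794 bases, its mean count was 0.896% of that of Psme2, and in NTG replicate 1 it stood for 2 reads, so that the value of 0.94 (SE 0.64, limma adjusted p = 0.394) is uncertain. It was 0.19 without NTG replicate 1 and 1.59 without NTG replicate 3. The summed normalized count of the 6 genes was 9884 to 10141 in NTG and 10952 to 11543 in 3xTg cells, and these ranges do not overlap.

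**Figure D2:**
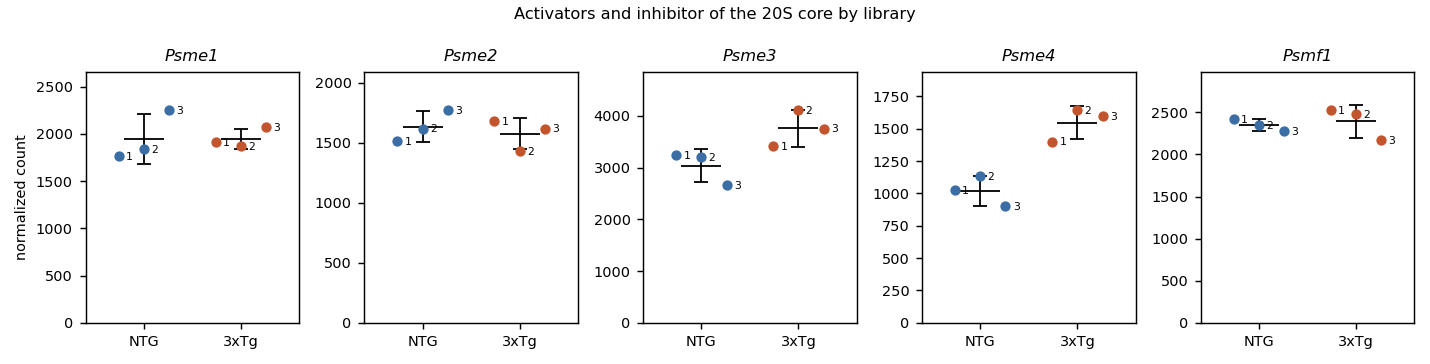
Normalized counts of Psme1, Psme2, Psme3, Psme4 and Psmf1 in each of the 6 libraries, numbered by replicate, with the mean (horizontal line) and SD of each genotype (n = 3); each axis starts at 0. Psme4 and Psme3 show no overlap between NTG and 3xTg libraries, whereas Psme1, Psme2 and Psmf1 overlap.

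The immunoproteasome genes were examined next, each with the standard subunit it replaces. Psmb8, Psmb9 and Psmb10 take the places of Psmb5, Psmb6 and Psmb7, which carry the chymotrypsin-like, caspase-like and trypsin-like sites. Psmb9 (chr17:34181987-34187764), Tap1, a subunit of the peptide transporter, and Psmb8 (chr17:34197721-34201454) follow each other in the MHC region, and Psmb10 lies apart (chr8:105935735-105938444). The RefSeq windows of the pair in the MHC region are shown since their counts followed each other over the libraries. In that of Psmb8 (chr17:34197945-34198244) the capitals mark a gamma-activated site core, TTCNNNGAA, and in that of Psmb9 (chr17:34187281-34187580, reverse strand) they mark a CCAAT box read on the other strand.
Psmb8: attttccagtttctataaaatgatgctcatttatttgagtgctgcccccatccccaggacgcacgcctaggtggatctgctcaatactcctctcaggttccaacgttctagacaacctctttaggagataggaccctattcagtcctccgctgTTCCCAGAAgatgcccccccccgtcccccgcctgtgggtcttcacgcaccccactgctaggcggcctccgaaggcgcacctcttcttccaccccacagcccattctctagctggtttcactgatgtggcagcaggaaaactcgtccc
Psmb9: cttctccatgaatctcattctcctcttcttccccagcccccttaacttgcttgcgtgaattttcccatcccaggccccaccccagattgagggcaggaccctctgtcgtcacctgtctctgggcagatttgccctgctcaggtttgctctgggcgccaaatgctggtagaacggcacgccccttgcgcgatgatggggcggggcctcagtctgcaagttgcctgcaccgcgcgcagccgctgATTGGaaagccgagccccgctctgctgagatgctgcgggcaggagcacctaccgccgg
Over all 32851 windows, 8.30% hold TTCNNNGAA and 37.4% hold CCAAT on either strand.

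Psmb8 stood at normalized counts of 128, 121 and 136 in the NTG replicates and at 123, 178 and 354 in the 3xTg replicates. Psmb9 had normalized counts of 86.6, 85.5 and 85.8 in NTG and 40.5, 99.0 and 169.5 in 3xTg cells. In each gene the NTG libraries lay close together, 3xTg replicate 3 was the highest library and 3xTg replicate 2 the second highest. 3xTg replicate 1 was the lowest of all in Psmb9 and lay among the NTG libraries in Psmb8. The log2 fold change of Psmb8 was 0.63 (SE 0.33, limma adjusted p = 0.281) and that of Psmb9 was 0.04 (SE 0.43, limma adjusted p = 0.968). Neither difference was larger than the spread between the 3xTg libraries. The coefficient of variation of Psmb9 was 0.638% in NTG and 62.7% in 3xTg cells, and that of Psmb8 was 6.05% and 55.2%. Without 3xTg replicate 3 the log2 fold change of Psmb9 was -0.43 and that of Psmb8 0.21.

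Some interferon-related genes had the same order over these libraries. Of a list of 18, 8 had their highest value in 3xTg replicate 3 and 5 of these also their lowest in 3xTg replicate 1, as did 13.6% and 2.83% of all tested rows. Among the 50 members 4 had the first order and Psmb9 alone had both. The 2 shown here were chosen after their values were seen. For H2-D1, the NTG libraries had normalized counts of 5224, 5478 and 5532 and the 3xTg libraries 4634, 5393 and 12029.7. Nlrc5 stood at normalized counts of 76.1, 81.3 and 68.0 in the NTG replicates and at 34.9, 56.2 and 129 in the 3xTg replicates. In these genes, which encode an MHC class I heavy chain and the MHC class I transactivator, 3xTg replicate 3 was the highest of the 6 libraries and 3xTg replicate 1 the lowest. Markers of leukocytes other than microglia summed to 31.1 to 64.5 in NTG and 40.5 to 58.0 in 3xTg libraries, with 4 to 7 of 10 markers at 0 in each. Microglial markers summed to 6946 in 3xTg replicate 3, less than in any NTG library (7839 to 9431). Whether leukocytes, microglia or any other source bore on the levels in this library was not tested.

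Psmb10 had normalized counts of 1277, 1283 and 1485 in NTG and 1251, 967 and 1075 in 3xTg cells. All 3xTg libraries lay below all NTG libraries, by a log2 fold change of -0.30 (SE 0.13, limma adjusted p = 0.204), so that it did not pass. Of the standard subunits, Psmb7 had the opposite direction. For Psmb7, the NTG libraries had normalized counts of 1677, 1702 and 1781 and the 3xTg libraries 2034, 2328 and 2305. Here too the groups did not overlap, with a log2 fold change of 0.37 (SE 0.10, limma adjusted p = 0.0902). Psmb5 stood at normalized counts of 4769.6, 4307 and 4922 in the NTG replicates and at 4986, 5019.9 and 4679 in the 3xTg replicates. Psmb6 had normalized counts of 9069, 8828 and 9739 in NTG and 8978, 7568 and 7581 in 3xTg cells. The log2 fold changes of these were 0.07 (SE 0.10, limma adjusted p = 0.693) and -0.20 (SE 0.11, limma adjusted p = 0.284), with overlap in both.

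To compare each inducible subunit with its standard counterpart within a library, the difference of their log2 counts was taken, which hardly depends on the scaling factor of a library. For Psmb10 to Psmb7 it was -0.39, -0.41 and -0.26 in NTG and -0.70, -1.27 and -1.10 in 3xTg cells. The groups did not overlap and differed by -0.67 (exact two-sided permutation test, p = 0.1, the smallest p that 3 samples against 3 allow, adjusted over 3 ratios to 0.3). After removal of each library's GC trend this difference was -0.23, the 2 transcripts having a GC content of 56.5% and 40.8%. For Psmb8 to Psmb5 the genotypes differed by 0.56 (exact permutation p = 0.4, adjusted to 0.6) and for Psmb9 to Psmb6 by 0.23 (exact permutation p = 0.7, adjusted to 0.7). The last turned to -0.27 without 3xTg replicate 3.

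The inducible subunits were a minor part of the catalytic transcripts. Per kilobase of the principal transcript, the 3 inducible genes together made up 5.80%, 6.05% and 6.24% of the 6 catalytic genes in NTG and 5.41%, 5.11% and 6.51% in 3xTg libraries, so that the groups overlapped. Most of this was Psmb10, with a mean level in NTG cells of 1028 normalized counts per kilobase, compared with 78.7 for Psmb8 and 63.6 for Psmb9. Reads over exons that Psmb9 shares with Tap1 on the opposite strand cannot be assigned with certainty, since the library kit does not mark strand and Tap1 had a mean of 1190 against 94.5 for Psmb9. The same holds for Psmb7 and Nek6, with means of 1971 and 3219.

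**Figure D3:**
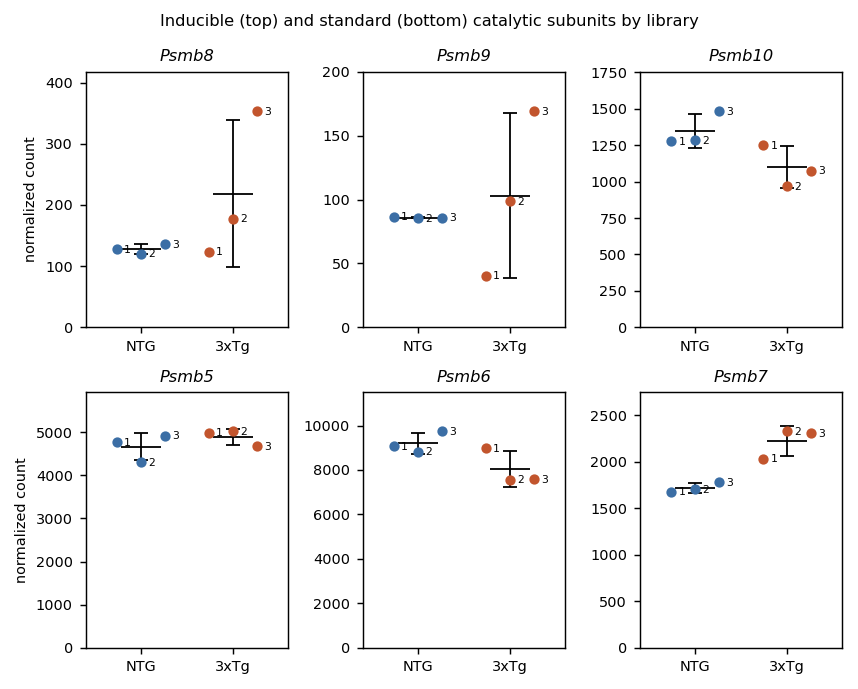
Normalized counts of the inducible subunits Psmb8, Psmb9 and Psmb10 (top) and of the standard subunits Psmb5, Psmb6 and Psmb7 that they replace (bottom), by library, with mean and SD per genotype (n = 3) and replicate numbers beside the points. 3xTg replicate 3 stands highest in Psmb8 (354) and Psmb9 (169.5), whereas Psmb10 is lower and Psmb7 higher in all 3xTg libraries.

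Among the constitutive 20S genes, the alpha subunits had mostly positive log2 fold changes and the beta subunits lay around 0. The 8 alpha genes had a median log2 fold change of 0.20, with 6 above 0, and the 7 beta genes one of 0.04, with 4 above 0. Their median GC contents were 44.5% and 51.0%, which the comparison by GC content takes up. Psma1, Psma3, Psma4 and Psma6 had no overlap between genotypes, at log2 fold changes of 0.27 to 0.31 and limma adjusted p of 0.103 to 0.155, so that none passed. For Psma1, the NTG libraries had normalized counts of 3539.8, 3350.3 and 3255 and the 3xTg libraries 4059.7, 4303 and 4209. This was the largest difference above 0 in the group (0.31, SE 0.09). Psma2, Psma5 and Psma7 had values of 0.12, 0.10 and -0.07 with overlapping groups. The alpha genes summed to 28397 to 29486 in NTG and 31734 to 33412 in 3xTg libraries, 1.12-fold in the means. Scaled by the total of assigned reads instead, the sums of the genotypes did not overlap either.

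Psma8 stood at normalized counts of 15.2, 21.0 and 23.7 in the NTG replicates and at 10.4, 8.44 and 11.2 in the 3xTg replicates. Psma8 encodes an alpha subunit of the testis that replaces Psma7 in germ cells, and its counts here stood for as few as 11 reads. The groups did not overlap, but its log2 fold change of -0.92 (SE 0.37) did not pass at a limma adjusted p of 0.179.

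The normalized counts of the 7 constitutive beta genes summed to 37263 to 39776 in NTG and to 35530 to 39118 in 3xTg libraries, which overlapped. Psmb3, a subunit without an active site, had the largest difference below 0 in the group. Psmb3 had normalized counts of 5547, 5681 and 6465 in NTG and 5757, 4532 and 4689 in 3xTg cells. Its log2 fold change was -0.25 (SE 0.12, limma adjusted p = 0.246), and 3xTg replicate 1 lay among the NTG values. Psmb1, Psmb2 and Psmb4 had values of 0.04, 0.06 and -0.13, and of these Psmb2 alone had no overlap between genotypes, in the higher direction.

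The 14 constitutive core genes other than Psma8 encode proteins that enter the particle in equal number, yet their transcripts spanned 1483 to 11544 normalized counts per kilobase in NTG cells, a 7.79-fold range. Psmb6 was the most abundant and Psmb7 the least, both being catalytic. The place of Psmb7, and the range with it, is uncertain, since 255 bases of its 1160-base transcript are shared with Nek6. Psma3 and Psma2 were close to it, at 1559 and 1572. The 19S genes spanned 696 for Psmc6 to 4818 for Psmd4, also per kilobase. Psme4 had a level of 157 in NTG and 238 in 3xTg cells, far under Psme1 with 1753 in NTG.

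**Figure D4:**
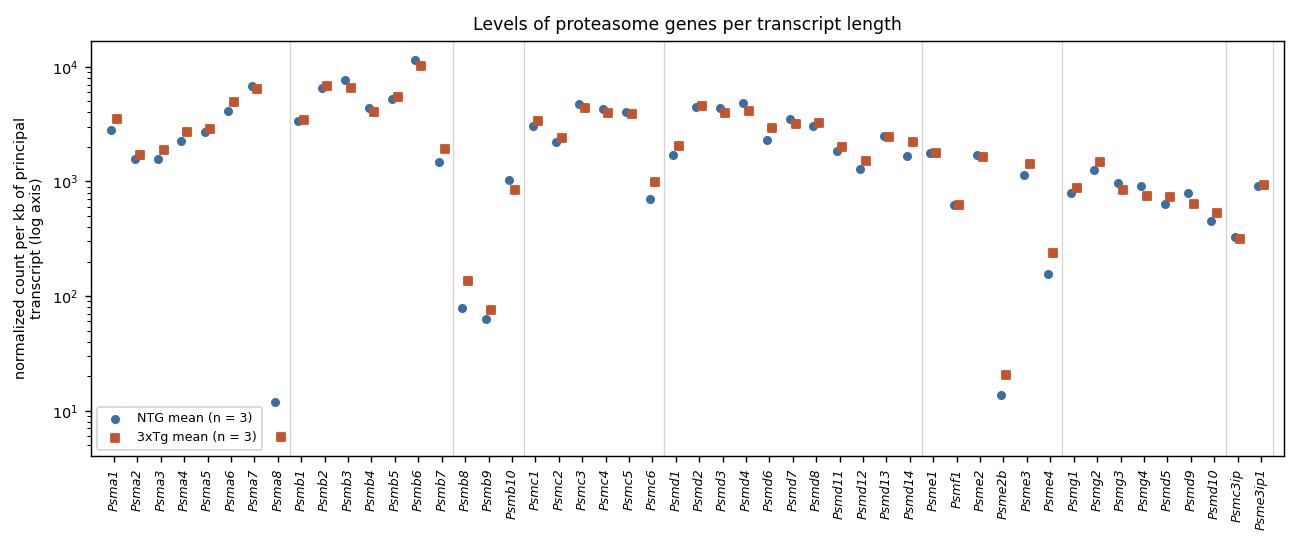
Mean level of each member in NTG (circles) and 3xTg (squares) cells as normalized count per kilobase of the principal transcript, on a log axis, with grey lines between groups. Circles and squares lie close for nearly all members, Psmb6 is the highest (11544 in NTG) and Psma8, Psme2b, Psmb9 and Psmb8 are the lowest.

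In the 19S particle no gene passed. The 6 ATPases, Psmc1 to Psmc6, had a median log2 fold change of 0.01. For Psmc6, the NTG libraries had normalized counts of 1703, 1617 and 1343 and the 3xTg libraries 1823, 2482 and 2255. All 3xTg libraries lay above all NTG libraries, with a log2 fold change of 0.49 (SE 0.14, limma adjusted p = 0.0970). The largest difference below 0 was in Psmc3, at -0.14 (SE 0.10, limma adjusted p = 0.393). Psmc3 stood at normalized counts of 7794, 7687 and 7914 in the NTG replicates and at 7367, 6538 and 7333 in the 3xTg replicates. Its groups did not overlap either. The other 4 ATPases lay between -0.12 and 0.15, with no overlap in Psmc1, in the higher direction.

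The 11 non-ATPases had a median of 0.08. Psmd14 encodes the deubiquitinase that cuts ubiquitin chains from the substrate. Psmd14 had normalized counts of 2577, 2746 and 2315 in NTG and 2971, 3828 and 3472 in 3xTg cells. Its log2 fold change was 0.42 (SE 0.12, limma adjusted p = 0.0932). For Psmd6, the NTG libraries had normalized counts of 3266, 3218 and 2982 and the 3xTg libraries 3802, 4392 and 4088. This subunit of the lid had a log2 fold change of 0.37 (SE 0.10, limma adjusted p = 0.0793). In both genes every 3xTg library lay above every NTG library. The large scaffold subunit Psmd1 also had no overlap (0.27, limma adjusted p = 0.182). In the other direction, Psmd4, a receptor for ubiquitin chains, had no overlap either. Psmd4 stood at normalized counts of 6235, 6159 and 6858 in the NTG replicates and at 6071, 5116 and 5376 in the 3xTg replicates. Its log2 fold change was -0.22 (SE 0.10, limma adjusted p = 0.238). The remaining 7, Psmd2, Psmd3, Psmd7, Psmd8, Psmd11, Psmd12 and Psmd13, lay between -0.15 and 0.24. Psmd2, which binds ubiquitin-like domains of shuttle factors, had 12831 to 14109 normalized counts in the 6 libraries.

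Without 3xTg replicate 1, Psmc6 and Psmd14 were called as well (0.61 and 0.52, limma adjusted p = 0.0242 and 0.0253), and with that setting 959 rows of the table were called higher instead of 210. By DESeq2, Psmb7, Psmc6, Psmd6 and Psmd14 had an adjusted p of 0.0325 to 0.0429 beside that of Psme4, at log2 fold changes under the threshold, so that 5 members passed in the higher direction by adjusted p alone and 4.09% of all rows did.

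The 7 assembly chaperones comprise Psmg1 to Psmg4, which build the core, and Psmd5, Psmd9 and Psmd10, which build the 19S base. Their median was 0.14, and none passed. Psmg2 had normalized counts of 1343, 1336 and 1307 in NTG and 1610.1, 1670.5 and 1451 in 3xTg cells. It had the largest difference above 0, 0.24 (SE 0.11, limma adjusted p = 0.204), and its groups did not overlap. For Psmg4, the NTG libraries had normalized counts of 455, 559.6 and 498 and the 3xTg libraries 522, 381 and 341. It had the largest below 0, -0.30 (SE 0.18, limma adjusted p = 0.342), with overlapping groups. Psmd9 had no overlap in the lower direction (-0.29, limma adjusted p = 0.140). Like Psmg2, Psmg1, Psmd5 and Psmd10 had none in the higher direction, at 0.14, 0.19 and 0.24, and Psmg3 overlapped, at -0.20. Psmc3ip, a factor of meiotic recombination, and Psme3ip1, a binding partner of the ring made by Psme3, had log2 fold changes of -0.05 and 0.03 with overlap.

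The log2 fold change of a member went with the GC content of its transcript. Over the 48 members with a mean of at least 50, Spearman's rho of log2 fold change with GC content was -0.66. All points come from the same 6 libraries, and over all tested rows with a GC value rho was -0.43. Of the 12 members with a GC content under 45%, 11 had a log2 fold change above 0 and their median was 0.28, where all rows in that range had 0.23. The 22 members from 45% to 52% had a median of 0.08 (all rows 0.05), and the 16 above 52% a median of -0.06 with 6 above 0 (all rows -0.16).

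Once each library's GC trend was removed, the medians of the 3 ranges became 0.07, 0.07 and 0.05 and rho became -0.07. The trend was fitted over all tested rows with a GC value, the members among them, so that a smaller rho largely follows from the removal itself. A difference between genotypes that goes with GC content would be taken out as well. The median of the alpha genes changed from 0.20 to 0.10, that of the beta genes from 0.04 to 0.01 and that of the ATPases from 0.01 to -0.01, which turned its sign. For the assembly chaperones it changed from 0.14 to 0.01. It went up from 0.04 to 0.16 in the immunoproteasome genes and from 0.17 to 0.24 in the activators and inhibitor, and stayed at 0.08 in the non-ATPases. The log2 fold change of Psmb5 went from 0.07 to 0.25. In 9 of the 50 members the sign turned, 4 to below 0 and 5 to above it, and none of these 9 was called. Psmc6, with the lowest GC content of the members (37.0%), went from a log2 fold change of 0.49 to 0.19, Psmb7 from 0.37 to 0.11 and Psmb10 from -0.30 to -0.12. Psmd6 went from 0.37 to 0.29 and Psme3 from 0.31 to 0.30.

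**Figure D5:**
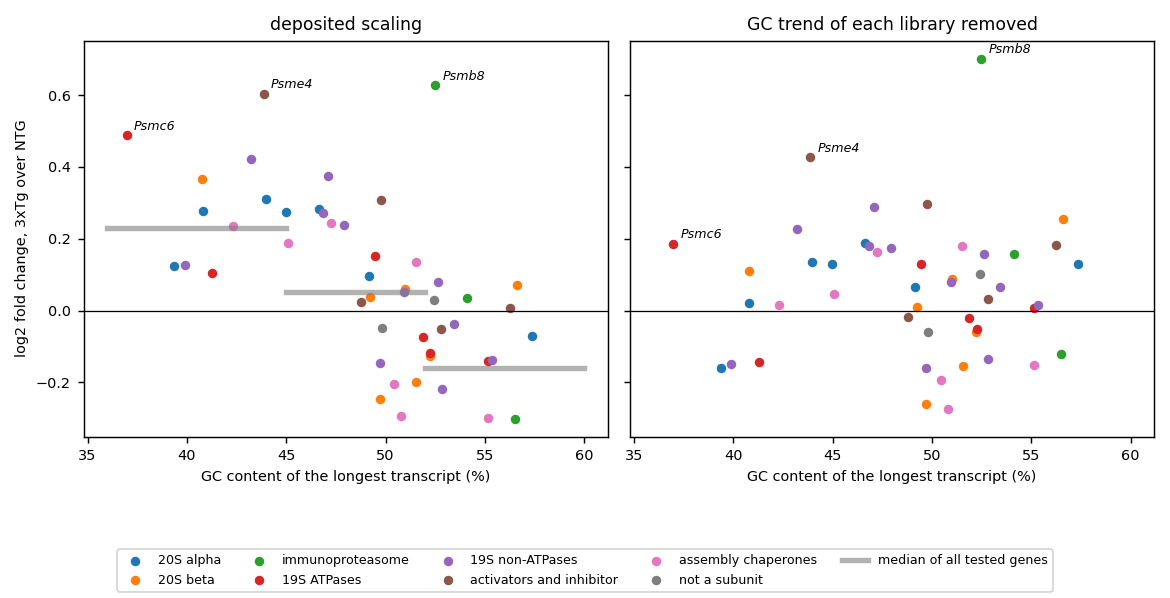
Log2 fold change of 48 members (mean of at least 50) against the GC content of the longest transcript, with the deposited scaling (left) and after removal of each library's GC trend (right); grey bars on the left are the medians of all tested rows in 3 ranges of GC content. On the left the points fall with GC content (rho of -0.66). On the right, where the removal itself takes out such a trend, they do not (-0.07). Psme4 and Psmb8 stay above the others.

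The genes that work with the proteasome were described from lists. As background for the counts below, 12.1% of all tested rows were higher and 11.4% lower at an unadjusted limma p under 0.05. edgeR called 1.22% of all rows higher and 1.62% lower, and DESeq2 3.2% and 3.91%. Of 11 tested partners of the particle that lack a Psm symbol, 0 were called in either direction by limma (unadjusted p under 0.05 in 7 higher and 1 lower, edgeR 0 and DESeq2 2 higher). The largest values were those of Ube3a, a ubiquitin ligase that binds the particle (0.68, limma adjusted p = 0.0907), and of Adrm1, a ubiquitin receptor (-0.27, limma adjusted p = 0.170). Usp14, a deubiquitinase that binds the 19S base, had 0.52 (limma adjusted p = 0.0767). The transcripts of Ube3a and Usp14 have a GC content of 36.9% and 39.2%, and that of Adrm1 55.4%. With each library's GC trend removed, the values were 0.38 for Ube3a, 0.24 for Usp14 and -0.12 for Adrm1. The others among the 7 higher at unadjusted p under 0.05 had a GC content of 39.2% to 47.3%. Their log2 fold changes of 0.32 to 0.41 became 0.06 to 0.24 with the GC trend removed. Of 13 genes for transcription of proteasome genes, including Nfe2l1, which encodes Nrf1, and its processing enzymes, 0 were called by limma (unadjusted p under 0.05 in 2 higher and 0 lower, edgeR 0 and DESeq2 1 higher). Nfe2l1 stood at normalized counts of 5643, 5379.6 and 5279 in the NTG replicates and at 5669, 5369.8 and 6108 in the 3xTg replicates. Its log2 fold change was 0.07 (SE 0.10), and the genotypes overlapped. The largest values of that list were 0.70 in Maff, a small Maf partner of Nrf1 (0.320 as limma adjusted p), and -0.10 in Nfyc, a subunit of the factor that binds CCAAT (0.551). That of Maff is uncertain, with an SE of 0.41, overlapping groups and as few as 37 reads in a library. With the GC trend removed, Maff had 0.91 and Nfyc -0.11.

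Ubb had normalized counts of 37868, 39005 and 36178 in NTG and 35781, 31811 and 34463 in 3xTg cells. Ubb encodes a chain of repeated ubiquitin units, and its groups did not overlap, with a log2 fold change of -0.15 (SE 0.11, limma adjusted p = 0.440). Of 15 tested shuttle factors and p97 partners, which bring substrates to the particle, 0 were called by limma (unadjusted p under 0.05 in 2 higher and 0 lower, edgeR 0 and DESeq2 1 higher). The largest value above 0 there was 0.64 in Ubxn7, an adaptor of p97 (limma adjusted p = 0.0765). Its transcript has a GC content of 39.9%, and with the GC trend removed the value was 0.36.

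Of 18 genes of interferon signalling and antigen presentation, 0 were called by limma (unadjusted p under 0.05 in 3 higher and 0 lower, edgeR and DESeq2 1 higher each). For B2m, the NTG libraries had normalized counts of 3519.9, 3314 and 3417 and the 3xTg libraries 4418, 4882 and 6805. B2m encodes the light chain of MHC class I, and its log2 fold change was 0.63 (SE 0.15, limma adjusted p = 0.0576). With the GC trend removed, B2m, at a GC content of 41.2%, had 0.38. Its groups did not overlap, and as for Psmb8 and Psmb9 the highest library was 3xTg replicate 3.

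Among the RefSeq windows, 46 belonged to 42 of the 50 members. TGACNNNGC was found in 6 of these windows (13.0%, against 12.4% of all), those of Psmb5, Psmb6, Psmc6, Psmd12, Psmd9 and Psme4. CCAAT was found in 15 (32.6%, against 37.4% of all). The interferon-stimulated response element core (GAAA, any pair of bases, GAAA) was found in 5 (10.9%, against 3.44% of all), those of Psmb3, Psmd4, Psmd9, Psme1 and Psmg4. TTCNNNGAA was found in 3 (6.52%, against 8.30% of all), those of Psmb8, Psmd2 and Psmg1. Both strands were searched, and a window counts under each motif it holds, also where matches share bases. A match is a description of the letters in the window.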

How the data were processed

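Sorted SGZ cells of 3 NTG and 3 3xTg replicates were profiled by bulk RNA-seq from SMART-Seq V4 cDNA, which does not mark strand. The authors aligned reads to GRCm38 (mm10) with HISAT2, assigned them with featureCounts and normalized them with DESeq2, and the deposited signal values used here are these normalized counts. Columns with the authors' own comparison (fold changes with their errors and p-values) were not used. Each value was a whole number of reads times 1 factor per library (100% within 0.01). Depth was 32731794 to 81800375 assigned reads per library.

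For the 18664 rows whose mean reached 10, 1 was added and the log2 taken, and limma 3.58.1 (R 4.3.3, trend) compared the genotypes with Benjamini-Hochberg adjustment over all of them. A call needed an adjusted p under 0.05 and a log2 fold change beyond 0.5 in size, the study's thresholds. The study used DESeq2, but since the deposited values are normalized, edgeR 4.0.16 and DESeq2 1.42.0 were run on the recovered reads as alternatives. Ratios were compared by an exact permutation test. Scripts were tested on simulated data. Other alternatives were the added count, filter, scaling, sample weights, a replicate block, removal of each library's GC trend (lowess, span 0.3) and leaving out each library.

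GENCODE M21 gave positions, transcript lengths and GC content for 55230 of 55471 rows, and BLAST 2.17.0 near-identical copies. Copies annotated as processed pseudogenes had at most 0.756% of the count of their parent (that of Psma3), and A730017L22Rik, a copy of Psmd11, had 4.07%. Exons overlapping a gene on the opposite strand were found among others in Psmc3, Psmd13, Psme1, Psmc3ip and Psme3ip1. Promoter windows are from RefSeq (GRCm38.p6).

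Members with per-library values were the called ones, the catalytic ones, the largest difference in each direction in each group, and those with no overlap and an unadjusted p under 0.01. From each pathway list the called genes or the largest difference in each direction were named, apart from items that are not reported here. Psme1, Psme3, Usp14, Nfe2l1, Ubb and the interferon genes by library were added after their values were seen. The members and lists were chosen with earlier results of these data known.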

Additional observations from a re-analysis of the deposited data

How the results depend on the processing

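The count of members called higher was 1 with 0.5 or 8 added before the log2, with a mean of at least 50 or no filter, and with edgeR's TMM scaling, quantile normalization, the edgeR and DESeq2 tests and adjusted p alone, and it was 0 with scaling by library total and 2 with sample weights (Psmb8 and Psme4). It was also 0 with the GC trend removed, alone, with the replicate block, or without 3xTg replicate 1. Leaving out 1 library gave 0 to 3, with 3 (Psmc6, Psmd14 and Psme4) without 3xTg replicate 1 and 0 without any of the others. No member was called lower under any of these. The median log2 fold change of the members was 0.10 with library total scaling, and 0.054 to 0.10 when 1 library was left out, the highest without 3xTg replicate 3. With library total scaling the median over all tested rows also rose, from 0.0071 to 0.045.

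Psme4 had an adjusted p of 0.0511 with library total scaling (log2 fold change of 0.64), 0.0779 with the GC trend removed and the replicate block (0.43), and 0.0383 with the GC trend removed and without 3xTg replicate 1 (0.45). Psmb8 had a log2 fold change of 1.15 with sample weights (limma adjusted p = 0.0159). The difference in the ratio of Psmb9 to Psmb6 ranged from -0.27 to 0.87 when 1 library was left out, with -0.27 without 3xTg replicate 3 and 0.87 without 3xTg replicate 1. That in Psmb8 to Psmb5 was 0.11 without 3xTg replicate 3 and 0.91 without 3xTg replicate 1.

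Signs turned in some values that did not pass. With the GC trend removed, the sign turned in 9 of the 50 members: Psma2 went from 0.12 to -0.16, Psmc2 from 0.10 to -0.14, Psmd11 from 0.13 to -0.15, Psmf1 from 0.024 to -0.017, Psma7 from -0.07 to 0.13, Psmd3 from -0.14 to 0.016 and Psmd13 from -0.04 to 0.06, beside Psmc3 and Psme2. Psmb9 was at -0.05 without 3xTg replicate 2 and -0.43 without 3xTg replicate 3, in a range up to 0.59 when 1 library was left out. Psmc3 was at 0.0063 with the GC trend removed, with or without the block, and 0.020 when 3xTg replicate 1 was left out as well. Psme2 was at 0.00996 with sample weights, 0.031 with the GC trend removed, with or without the block, 0.0058 when 3xTg replicate 1 was left out as well, 0.0074 without NTG replicate 3 and 0.016 without 3xTg replicate 2, and -0.11 at the lowest when 1 library was left out. Psmc3ip was at 0.028 with sample weights and 0.0092 without 3xTg replicate 2, and -0.14 at the lowest when 1 library was left out. Psme3ip1 was at -0.00025 with quantile normalization. The causes were not tested.

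The labels give both genotypes the same replicate numbers. Deviations of same-numbered libraries correlated at 0.0635, 0.20 and 0.0383, which does not show that a number marks a pair. With the replicate block 1 member was called higher (Psme4, limma adjusted p = 0.0350) and 0 lower, while over all rows 302 were called higher and 450 lower instead of 210 and 312. Over all rows, calls were 598 and 729 by DESeq2, 1196 and 1408 with sample weights, 437 and 746 with the GC trend removed and without 3xTg replicate 1, 159 and 193 with a mean of at least 50, and 49 to 959 and 106 to 1071 when 1 library was left out. Depth limits Psma8 and Psme2b, with as few as 11 and 2 reads in a library.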
